A study of Mus musculus with 6 samples.

Results

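The sarcomere of skeletal muscle is built on a protein scaffold, and 44 genes of that scaffold were followed in the muscle of mice with cancer cachexia, the loss of muscle and fat that a tumor causes. They are titin and its partners at the Z-disc and M-band, myosin-binding proteins, muscle LIM and ankyrin repeat proteins, the intermediate filament genes of muscle, the proteins that cap actin filaments and factors that assemble the sarcomere. The genes were taken by name from a table of 21212 probe sets, and each of the 44 had a probe set of its own, above background. Murc is the name in the table of the gene now called Cavin4.

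The arrays measured gastrocnemius and plantaris muscle of male CDF1 mice that were 8 weeks old at purchase. Tumor-bearing mice had C26 cells, a mouse colon carcinoma line, placed under the skin of both flanks in a mixture of PBS and matrigel, and control mice were given the mixture alone. Muscles were taken 25 days later from 3 control and 4 C26 mice. RNA from 2 to 3 muscles was combined into a pool for each array, so that there were 3 pools numbered 1, 2 and 3 in the control group and 3 numbered 1, 3 and 4 in the C26 group. The sources used here do not tell the muscles of 1 pool from those of another, so a mouse may have given RNA to more than 1 pool, and the p-values cover only the spread among pools.

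All values are log2 RMA values, in which a difference of 1 is a 2-fold change, and differences are C26 minus control with a standard error (SE). The array medians lay between 4.93 and 5.02. The Pearson correlation over all probe sets was 0.994 to 0.996 between arrays of a group and 0.976 to 0.981 between groups. All 10 skeletal muscle identity markers lay above the background level of 3.82, which was set by olfactory and vomeronasal receptor probe sets. Of 5 heart markers, Nppa, Myl7 and Tnni3 had group means from 3.72 to 4.21, close to that level, and Myh6 and Tnnt2 had means from 5.74 to 5.90, above it. None of the 5 passed.

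Z-discs anchor the thin filaments of neighboring sarcomeres through α-actinin, and titin spans from the Z-disc to the M-band, where myomesins tie the thick filaments together. Many Z-disc proteins also sense stretch or carry signals to the nucleus, and several genes of these proteins are known to be induced by stretch, exercise or injury. Mutations in a number of them cause myopathies in humans or mice.

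A gene was said to rise or fall where limma gave an adjusted p of at most 0.05 and the change was at least 1.5-fold. By that rule 3 of the 44 genes rose, 8 fell and 33 did not pass, so that 25% were called. Over all 21212 probe sets 10.9% were called, 5.94% as higher and 4.95% as lower in C26 muscle. Those shares include dim probe sets, since 14891 of the 21212 lay above background in at least 1 group. In a fit to those 14891 alone, 1242 were called as higher and 1023 as lower, a larger share than over the whole table. The falls made up 18.2% of the 44 genes and the rises 6.82%. With each array centred on its median, 5 of the genes rose and 7 fell, and over all probe sets that scaling moved the higher share of the calls from 54.6% to 64.6%. Bulk muscle RNA cannot tell fewer cells of a type from less RNA per cell.

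The median of the 44 genes lay near that of all probe sets, and their changes were larger in size. The median change was -0.077, beside -0.046 for all probe sets, and the median size of the change was 0.41, beside 0.17. All 44 genes lay above background, while the values and shares for all probe sets include dim ones. In 29 of the 44 genes (65.9%) every C26 pool lay on 1 side of every control pool, as it did in 43.9% of all probe sets. Without the fold minimum 7 genes were higher and 17 lower, where 14.3% of all probe sets were higher and 15.8% lower, 30.1% in all.

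**Figure D1:**
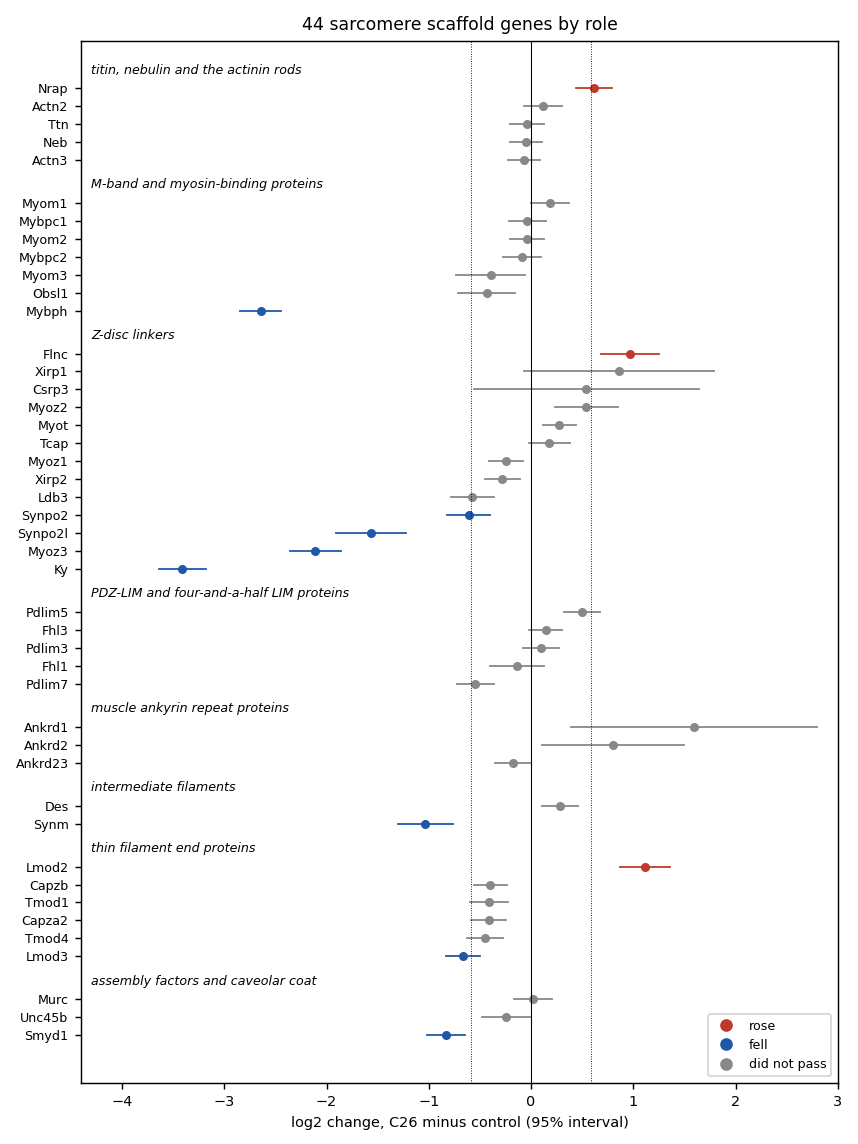
Change of each of the 44 genes, grouped by role. Points are log2 changes, C26 minus control, from 3 pools a group, bars are 95% intervals from limma, dotted lines mark 1.5-fold and colors mark genes that rose (red), fell (blue) or did not pass (gray). Ky, Mybph and Myoz3 lie farthest to the left, and Ankrd1, Csrp3 and Xirp1 have the widest intervals.

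Z-disc linkers held the largest fall. Of 13 genes of this role 1 rose, 4 fell and 8 did not pass, with a median change of -0.24. The 4 that fell were Ky, Myoz3, Synpo2l and Synpo2, and the 1 that rose was Flnc.

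Ky encodes kyphoscoliosis peptidase, a Z-disc protein that binds filamin C and whose loss in mice causes a muscle and spine disorder. It read 9.29, 9.13 and 9.41 in the control pools and 5.97, 5.73 and 5.89 in the C26 pools. The groups lay far apart and each group was tight. It fell by 3.41 on the log2 scale (SE 0.10, 10.6-fold, limma adjusted p = 6.41e-07), and the change lay between -3.48 and -3.34 whichever array was left out.

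Myoz3 encodes myozenin-3 (calsarcin-3), which binds calcineurin and α-actinin in fast fibers. Its values were 9.42, 9.33 and 9.35 in control muscle and 7.50, 7.14 and 7.13 in C26 muscle, a change of -2.11 (SE 0.11, adjusted p = 6.06e-06). The family moved unequally. Myoz1, the other fast-fiber myozenin, was lower by only 0.24 (adjusted p = 0.0327), short of 1.5-fold. Myoz2, the myozenin of slow fibers and heart, read 8.84, 8.82 and 8.58 in control and 8.99, 9.41 and 9.45 in C26 pools, a change of 0.54 (SE 0.13, adjusted p = 0.0161). The Myoz2 pools did not overlap, but the change was just short of 1.5-fold, and Myoz2 passed when arrays were centred on their medians (0.60), without control replicate 1 (0.59) and without C26 replicate 1 (0.69).

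Synpo2l encodes a synaptopodin-like actin-binding protein of the Z-disc, also called CHAP. Control pools gave 9.39, 9.25 and 9.21 and C26 pools 7.35, 7.88 and 7.93. All C26 pools were lower, replicate 1 the most. The change was -1.57 (SE 0.15, adjusted p = 0.000119). Its relative Synpo2 (myopodin) read 6.16, 5.93 and 6.18 in control and 5.53, 5.47 and 5.42 in C26 muscle. That change of -0.61 (SE 0.090, adjusted p = 0.0012) lay at the edge of the fold minimum and no longer reached 1.5-fold without control replicate 1 (-0.58), control replicate 3 (-0.57) or C26 replicate 4 (-0.58) or with arrays centred on their medians (-0.55).

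Upstream sequence of the genes with large falls is shown to give the stretch of DNA beside which these transcripts start. The sequences are the 250 bases before the start of a RefSeq transcript on GRCm38.p6, read 5′ to 3′ on the gene's strand. Capitals mark an E-box (CANNTG, the core letters bound by myogenic bHLH factors), an MCAT element (CATTCC on either strand, the TEAD site) or a MEF2 box. The windows are chr9:102505888-102506137 on the plus strand for Ky, chr1:134193198-134193447 on the plus strand for Mybph, which is described with the M-band genes, and chr14:20668355-20668604 on the minus strand for the upstream of the Synpo2l starts.
Ky promoter: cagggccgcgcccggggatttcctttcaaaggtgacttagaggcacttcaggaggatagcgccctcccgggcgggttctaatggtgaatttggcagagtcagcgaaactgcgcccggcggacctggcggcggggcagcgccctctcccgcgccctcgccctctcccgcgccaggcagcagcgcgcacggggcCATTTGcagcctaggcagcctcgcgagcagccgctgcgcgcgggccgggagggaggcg
Mybph promoter: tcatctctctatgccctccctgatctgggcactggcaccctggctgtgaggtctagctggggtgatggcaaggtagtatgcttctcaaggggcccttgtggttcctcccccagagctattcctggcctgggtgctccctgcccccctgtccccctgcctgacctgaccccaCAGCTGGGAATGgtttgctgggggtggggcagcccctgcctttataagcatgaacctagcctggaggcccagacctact
Synpo2l promoter: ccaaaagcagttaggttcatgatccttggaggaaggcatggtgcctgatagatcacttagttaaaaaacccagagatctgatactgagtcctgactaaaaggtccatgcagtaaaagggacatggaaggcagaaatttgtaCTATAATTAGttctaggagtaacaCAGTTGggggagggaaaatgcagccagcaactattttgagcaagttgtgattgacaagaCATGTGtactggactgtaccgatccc
The Ky window held a single E-box, 58 bases before the start. In the Mybph window an E-box at 79 bases ran directly into an MCAT element at 73 bases. The Synpo2l window held a MEF2 box at 109 bases and E-boxes at 85 and 26 bases before the start. A match of letters describes the sequence and does not show that a factor binds there.

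Flnc was the only linker that rose. Filamin C crosslinks actin at the Z-disc, binds Ky protein and gathers at sites of sarcomere damage. Its transcript read 10.64, 10.41 and 10.40 in control and 11.22, 11.68 and 11.46 in C26 muscle, with no overlap. The rise was 0.97 (SE 0.13, 1.96-fold, adjusted p = 0.000587). Thus the genes of the binding partners Flnc and Ky changed in opposite directions in the same pools.

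Among the linkers that did not pass, Ldb3 (cypher, or ZASP, which binds α-actinin) came closest to the fold minimum. It read 11.00, 10.96 and 10.90 in control and 10.55, 10.27 and 10.33 in C26 pools (-0.57, adjusted p = 0.00178). Ldb3 passed under quantile normalization (-0.61), without control replicate 3 (-0.60) and without C26 replicate 1 (-0.66). Xirp2, which binds actin and α-actinin, was lower by 0.28 (adjusted p = 0.0211). Myot, encoding the Z-disc protein myotilin, was higher by 0.28 (adjusted p = 0.0181). For Tcap, encoding the telethonin that joins 2 titin ends, the difference was 0.18 with a 95% interval of -0.022 to 0.38. Csrp3 and Xirp1 varied among the pools and are described with the ankyrin repeat genes.

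The main filament-spanning genes were measured precisely and differed little. Ttn, encoding titin, gave 12.32, 12.29 and 12.27 in control and 12.30, 12.26 and 12.19 in C26 pools, a difference of -0.039 (95% interval -0.20 to 0.13). Neb, the gene of the nebulin that runs along the thin filament, differed by -0.049 (-0.21 to 0.11). Actn2 and Actn3, the α-actinin genes, differed by 0.11 (-0.072 to 0.30) and -0.064 (-0.22 to 0.092). All 4 intervals lay within 1.5-fold, and under other scalings the sign of the differences for Ttn, Neb and Actn3 turned.

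Nrap was the gene of this role that rose. Nebulin-related anchoring protein takes part in myofibril assembly and sits at the muscle-tendon junction. Control pools gave 10.72, 10.69 and 10.72 and C26 pools 11.23, 11.41 and 11.33. The groups were well apart, but the rise of 0.62 (SE 0.077, adjusted p = 0.000494) was just over the fold minimum, and without C26 replicate 3 it came to 0.57 and no longer passed.

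**Figure D2:**
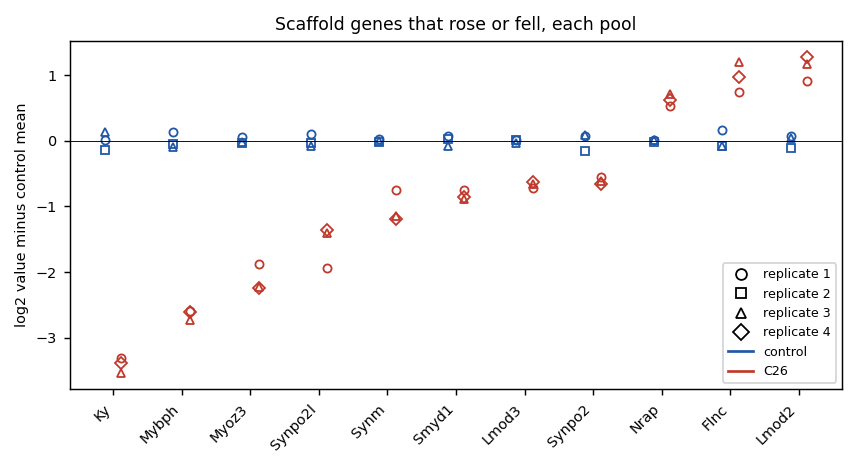
Each pool of the 11 genes that rose or fell, as the log2 value minus the mean of the 3 control pools. Colors give the group and marker shapes the replicate number, and in every one of the 11 genes the C26 pools lie on 1 side of all control pools.

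Of 7 M-band and myosin-binding genes 1 fell and 6 did not pass, with a median change of -0.089. The gene that fell was Mybph, encoding myosin-binding protein H, a short relative of myosin-binding protein C in fast muscle. Mybph read 9.23, 9.05 and 9.002 in control pools and 6.50, 6.36 and 6.49 in C26 pools. It fell by 2.64 on the log2 scale, next to Ky in size (SE 0.088, 6.25-fold, adjusted p = 1.06e-06), with no overlap between groups.

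The related thick-filament genes gave small differences. Mybpc1 and Mybpc2, the slow and fast forms of myosin-binding protein C, differed by -0.035 (95% interval -0.21 to 0.14) and -0.089 (-0.27 to 0.093). The myomesins that crosslink thick filaments at the M-band differed by 0.19 for Myom1 (0.0039 to 0.37) and by -0.037 for Myom2 (-0.20 to 0.13). Myom3, the myomesin of intermediate-speed fibers, had a wider spread, with control pools at 7.67, 7.56 and 7.15 and C26 pools at 6.85, 7.22 and 7.12. Its groups overlapped (-0.39, adjusted p = 0.0795). Obsl1, encoding obscurin-like 1 at the M-band, read 7.41, 7.36 and 7.44 against 7.19, 7.02 and 6.70, a difference of -0.44 (adjusted p = 0.0256) that was short of 1.5-fold.

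None of the 5 PDZ-LIM and four-and-a-half LIM genes passed. These proteins bind α-actinin or other Z-disc and nuclear partners through LIM zinc fingers. A pair of them moved in opposite directions just under the fold minimum. Pdlim5 (ENH) read 9.97, 9.93 and 9.82 in control and 10.35, 10.40 and 10.46 in C26 muscle (0.50, SE 0.077, adjusted p = 0.00156). Pdlim7 (enigma) read 10.63, 10.63 and 10.55 against 10.15, 9.96 and 10.06 (-0.54, SE 0.080, adjusted p = 0.00118). Neither pair of groups overlapped, and Pdlim7 passed without C26 replicate 1 (-0.59). Pdlim3, Fhl1 and Fhl3 differed by 0.10, -0.14 and 0.14, each with an interval inside 1.5-fold.

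The intermediate filament genes also diverged. Desmin links Z-discs of neighboring myofibrils, and synemin builds into desmin filaments and binds α-actinin. Synm read 9.81, 9.77 and 9.78 in control and 9.03, 8.64 and 8.59 in C26 pools, a change of -1.03 (SE 0.12, 2.05-fold, adjusted p = 0.000305). Des was higher in every C26 pool than in any control pool, at 11.49, 11.49 and 11.36 against 11.79, 11.72 and 11.69, but the difference of 0.29 (adjusted p = 0.0219) lay short of 1.5-fold.

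Among the 6 genes of thin filament ends 1 rose, 1 fell and 4 did not pass. In all 6 the groups did not overlap, as in 65.9% of the 44 genes and 43.9% of all probe sets. Leiomodins nucleate and elongate actin at the pointed ends. Lmod2, the leiomodin best known from heart, read 8.58, 8.41 and 8.55 in control and 9.42, 9.67 and 9.79 in C26 muscle. That rise of 1.12 (SE 0.11, 2.17-fold, adjusted p = 0.000129) was the largest of any gene of the 44 that passed. Lmod3, the skeletal muscle leiomodin whose loss causes nemaline myopathy, read 8.50, 8.50 and 8.44 against 7.77, 7.83 and 7.85 and fell by 0.67 (SE 0.071, adjusted p = 0.000214). The leiomodin genes thus moved in opposite directions, each in every pool.

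The other thin filament end genes were all lower by a similar amount. Tropomodulins cap pointed ends, and Tmod1 and Tmod4 were lower by 0.41 and 0.45 (adjusted p = 0.00591 and 0.00269). CapZ caps barbed ends at the Z-disc, and its subunit genes Capza2 and Capzb were lower by 0.42 and 0.40 (adjusted p = 0.00297 and 0.003). Control pools of Capzb gave 10.17, 10.17 and 10.10 and its C26 pools 9.78, 9.74 and 9.72. None of these 4 differences reached 1.5-fold.

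The Lmod2 promoter is shown because this gene rose most among those that passed, on GRCm38.p6 at chr6:24597521-24597770, plus strand, with its E-box in capitals.
Lmod2 promoter: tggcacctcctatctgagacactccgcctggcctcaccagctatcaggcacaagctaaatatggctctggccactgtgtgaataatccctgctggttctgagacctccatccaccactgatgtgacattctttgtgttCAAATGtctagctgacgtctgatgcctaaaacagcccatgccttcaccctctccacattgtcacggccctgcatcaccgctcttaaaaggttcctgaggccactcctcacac
The E-box lay 112 bases before the start, and no CArG box, MEF2 box or MCAT element of the letters searched was in the window.

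Among assembly factors Smyd1, a methyltransferase that binds myosin and serves its folding and M-band attachment, read 9.97, 9.92 and 9.82 in control and 9.16, 9.02 and 9.04 in C26 pools. It fell by 0.83 (SE 0.080, adjusted p = 0.000124), with no overlap. Unc45b, the myosin chaperone that acts beside it, differed by -0.25 (adjusted p = 0.111) with overlapping groups. Murc, encoding a muscle caveolar coat protein at the Z-disc and membrane, differed by 0.020 (95% interval -0.16 to 0.20).

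In Ankrd1, Ankrd2, Csrp3 and Xirp1 the SD between C26 pools was larger than in any other of the 44 genes. Ankrd1 (CARP), Ankrd2 (Arpp) and Ankrd23 (DARP) encode proteins that bind titin's N2A region in the I-band and enter the nucleus. Csrp3 encodes muscle LIM protein, which binds telethonin and α-actinin, and Xirp1 encodes Xin, which binds actin and filamin C at damaged or remodeling sites. Ankrd1, Ankrd2, Csrp3 and Xirp1 are known to be induced by stretch or injury.

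Ankrd1 read 5.47, 5.15 and 5.11 in control pools and 5.33, 7.66 and 7.53 in C26 pools. C26 replicate 1 lay inside the control range and the other C26 pools far above it. The difference was 1.60 (SE 0.53, limma adjusted p = 0.0504), the largest positive difference of the 44 genes, and it did not pass. Under median centring (adjusted p = 0.042), quantile normalization (0.0486) and a filter on dim probe sets (0.0325) it passed.

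Ankrd2 gave 10.59, 10.28 and 9.83 in control and 10.29, 11.40 and 11.42 in C26 pools (0.80, SE 0.30, adjusted p = 0.081). Csrp3 gave 8.94, 8.35 and 7.87 in control and 7.68, 9.50 and 9.60 in C26 pools (0.54, SE 0.48, adjusted p = 0.455). Xirp1 gave 9.12, 8.33 and 8.00 in control and 8.39, 9.94 and 9.69 in C26 pools (0.86, SE 0.41, adjusted p = 0.154). In all 3 genes C26 replicates 3 and 4 lay above every control pool and C26 replicate 1 did not, and in Csrp3 replicate 1 was the lowest of the 6 arrays. Ankrd23 followed a different course, with tight groups and a difference of -0.18 (95% interval -0.35 to -0.012).

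**Figure D3:**
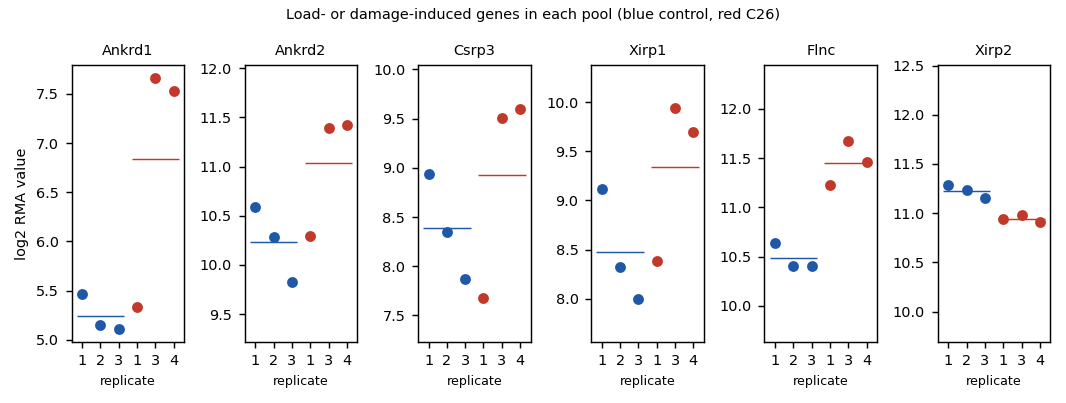
Log2 RMA values of the 6 genes grouped as load- or damage-induced, each pool as a point (blue control, red C26) with the group mean as a line, and each vertical axis covers the same number of log2 units. In Ankrd1, Ankrd2, Csrp3 and Xirp1 the C26 replicate 1 point lies within or below the control range while replicates 3 and 4 lie above, a split that Flnc and Xirp2 do not show.

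Without C26 replicate 1 these genes passed, with the remaining C26 pools compared with 3 control pools. They are described together because that pool lay apart from the other C26 pools, so the fit gives no separate support. Without that pool the limma change was 2.35 for Ankrd1 (adjusted p = 4.65e-05), 1.18 for Ankrd2 (0.00499), 1.16 for Csrp3 (0.0185) and 1.34 for Xirp1 (0.0146). Of the 44 genes, 8 then rose and 10 fell. Beside these 4, the genes that newly passed were Myoz2 (0.69) as higher and Ldb3 (-0.66) and Pdlim7 (-0.59) as lower. Across all fits without 1 array the limma adjusted p reached 0.173 for Ankrd1, 0.246 for Ankrd2, 0.82 for Csrp3 and 0.404 for Xirp1.

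Few probe sets in the table split the C26 pools in this way. Both C26 replicates 3 and 4 lay at least 1 log2 unit above C26 replicate 1 in 12 of 21212 probe sets (0.0566%), of which 4 are Ankrd1, Ankrd2, Csrp3 and Xirp1. The opposite split was found in 2 probe sets, with none of the 44 genes. This count was chosen after the values had been seen. The other 8 were Otud1, Nr4a3, Atf3, Lmcd1, Ppargc1a, Orai2, Dusp18 and Tubb2a-ps2, and they did not share 1 pattern. Nr4a3 read 5.96, 5.64 and 5.69 in control and 6.38, 7.74 and 7.81 in C26 pools, so that replicates 3 and 4 lay above control. Otud1 read 8.63, 8.34 and 8.67 in control and 7.08, 8.54 and 8.58 in C26 pools, so that replicate 1 lay below control. The SD between C26 pools was 1.31 for Ankrd1, 1.08 for Csrp3, 0.84 for Xirp1 and 0.64 for Ankrd2, where the median over all probe sets was 0.10.

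The control pools of these genes varied too. In each of Ankrd1, Ankrd2, Csrp3 and Xirp1, control replicate 1 was highest and control replicate 3 lowest, with a range of 1.07 for Csrp3 and 1.12 for Xirp1. Over the 44 genes the median shift from the control mean was -0.085, -0.062 and -0.11 in C26 replicates 1, 3 and 4, and for the 6 load- or damage-induced genes it was -0.017, 1.18 and 1.20. The cause of the split was not tested.

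The upstream sequences of genes that split the pools are given next, because their pools split alike. On GRCm38.p6 the windows are chr19:36119845-36120094 on the minus strand for Ankrd1, chr19:42035777-42036026 on the plus strand for Ankrd2 and chr7:48848052-48848301 on the minus strand for the upstream of the Csrp3 starts. Xirp1 has no entry in the promoter table used.
Ankrd1 promoter: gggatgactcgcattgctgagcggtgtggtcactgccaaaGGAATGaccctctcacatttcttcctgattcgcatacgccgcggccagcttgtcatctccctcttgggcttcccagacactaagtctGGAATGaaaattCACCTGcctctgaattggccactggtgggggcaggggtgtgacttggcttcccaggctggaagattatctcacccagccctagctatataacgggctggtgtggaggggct
Ankrd2 promoter: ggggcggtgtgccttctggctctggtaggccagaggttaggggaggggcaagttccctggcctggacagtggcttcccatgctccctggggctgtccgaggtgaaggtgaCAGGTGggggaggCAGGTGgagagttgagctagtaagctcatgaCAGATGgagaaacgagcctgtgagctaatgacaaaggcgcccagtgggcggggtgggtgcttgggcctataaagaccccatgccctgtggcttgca
Csrp3 promoter: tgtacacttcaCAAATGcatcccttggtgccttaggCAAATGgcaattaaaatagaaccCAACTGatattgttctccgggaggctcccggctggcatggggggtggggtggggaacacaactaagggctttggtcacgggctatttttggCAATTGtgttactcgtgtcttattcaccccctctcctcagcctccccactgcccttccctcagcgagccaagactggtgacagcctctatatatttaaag
The Ankrd1 window held MCAT elements 210 and 123 bases before the start and an E-box at 111 bases. The Ankrd2 window held E-boxes at 140, 127 and 96 bases, and the Csrp3 window E-boxes at 239, 214, 191 and 100 bases. Neither a MEF2 box nor a CArG box of the letters searched was found in these 3 windows.

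Across the scaffold, RefSeq promoters were kept for 35 of the 44 genes, in 42 windows of 250 bases. Any window of the 44 genes on 1 of the chromosomes had been dropped first. The mouse promoters set beside them were not filtered in this way. An E-box stood in 32 of 42 windows (76.2%), beside 66.2% of 32851 mouse promoter windows. A MEF2 box stood in 7 windows (16.7%, beside 2.92%), those of Myom3, Myoz2, Synpo2, Synpo2l, Ttn and Xirp2. A CArG box, the site of serum response factor, stood in 4 (9.52%, beside 1.47%), those of Fhl1 and Myom1 and an overlapping pair of Ldb3 that holds the same element, so 3 of 35 genes had 1. MCAT stood in 7 (16.7%, beside 12.6%). Of 7 windows of genes that fell 3 held a MEF2 box, those of Synpo2 and Synpo2l, and of 4 windows of genes that rose none did. These counts are too small to compare directions and were not tested.

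Genes tied to fiber type did not move as a block. Of 5 slow or oxidative fiber genes (Myoz2, Myom3, Ankrd2, Csrp3 and Mybpc1) none passed, and their median change was 0.54 with a range of -0.39 to 0.80. Their median shift from control was 0.034, 0.67 and 0.71 in C26 replicates 1, 3 and 4. Ankrd2 and Csrp3 are also among the load- or damage-induced genes that split the C26 pools. Of 5 fast fiber genes (Actn3, Myoz1, Mybpc2, Myom2 and Tmod4) none passed, with a median of -0.089 and a range of -0.45 to -0.037. Myoz3 and Mybph, tied to fast muscle above, were not put in this group, and they changed by -2.11 and -2.64. In separate marker lists, which share no gene with either group, 2 of 8 slow fiber and 1 of 8 fast fiber genes fell. The slow fiber markers had a median change of -0.28 and the fast fiber markers one of -0.13. In each list all 8 differences were below 0, with the highest at -0.086 in the slow and -0.0028 in the fast list.

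Other sarcomere genes were counted from lists made for comparison. Of 29 measured genes of further Z-disc, M-band and titin partners 2 rose and 3 fell, with a median change of -0.15. Those that rose were Filip1 (1.22, adjusted p = 1.87e-05), whose product binds filamin C, and Klhl40 (0.83, adjusted p = 0.0173), whose product stabilizes nebulin and leiomodin-3. Those that fell were Palld (-1.09), Nexn (-0.66) and Sorbs2 (-0.63), which encode the actin-associated proteins palladin, nexilin and ArgBP2. Klhl40 pools read 7.71, 7.21 and 7.25 in control and 7.74, 8.53 and 8.40 in C26 muscle, so that C26 replicate 1 again lay near control.

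Of 19 thin and thick filament genes none rose and 4 fell, with a median of -0.21. The largest fall was that of Actc1, the cardiac α-actin gene that skeletal muscle also expresses, which read 10.04, 10.02 and 10.03 in control and 8.17, 7.83 and 7.91 in C26 pools (-2.06, adjusted p = 4.13e-06). Among 9 genes of ligases and proteases that act on the sarcomere 4 rose and 2 fell. The ligase gene Trim63, whose product MuRF1 binds titin at the M-band, rose by 2.86, and Fbxo32 of the same list rose by 2.12. Trim55 and Trim32, which encode other ligases of the sarcomere, fell by 0.59 and 0.67.

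Regulators of sarcomere genes moved both ways. Of 16 measured, Abra (1.10) and Myog (0.75) rose and Mef2c (-1.86), Myod1 (-1.53) and Mkl1 (-1.32, now called Mrtfa) fell. Mef2c, a transcription factor that binds the MEF2 box, read 10.33, 10.33 and 10.26 in control and 8.58, 8.45 and 8.31 in C26 pools. Abra, whose Z-disc protein STARS activates serum response factor, read 9.37, 9.19 and 8.95 in control and 9.78, 10.56 and 10.48 in C26 pools, with C26 replicate 1 the lowest of its group. Mef2a (0.25), Mef2d (0.26) and Srf (-0.43) lay short of 1.5-fold.

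**Figure D4:**
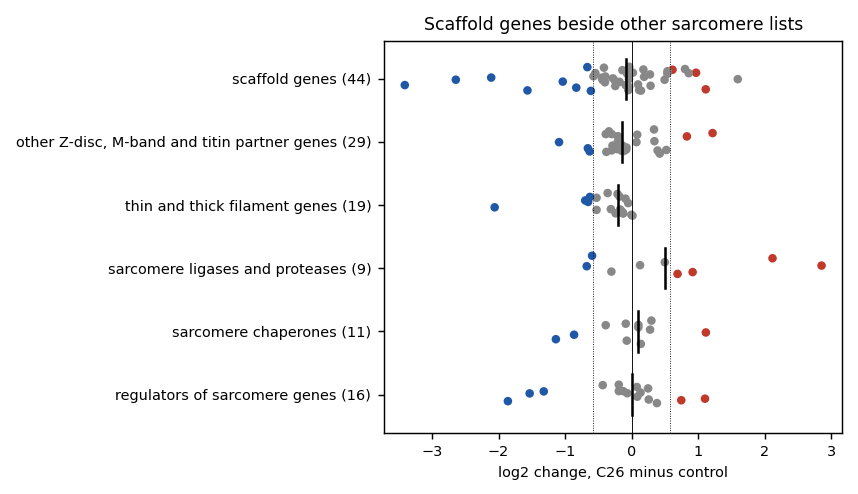
Log2 change of each measured gene in the 44-gene scaffold and in 5 other sarcomere lists, with the number of genes beside each name. Points are genes that rose (red), fell (blue) or did not pass (gray), black bars are list medians and dotted lines mark 1.5-fold, and the scaffold spans the widest range, from -3.41 to 1.60.

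Markers of other cells in whole muscle also differed between the groups. Summed log2 levels of 7 tendon cell markers were 54.4 to 55.2 in control and 43.5 to 43.8 in C26 pools, and 4 of them fell. Thbs4, also of the tendon list, went the other way. It was higher in every C26 pool than in any control pool (0.43), short of 1.5-fold. For 9 fibroblast markers the sums were 77.0 to 77.9 and 71.8 to 73.0, with 4 that fell (Col1a1, Col3a1, Dpt and Dpp4). Fibroblast markers did not all go 1 way, since Pdgfra (0.50) and Pi16 (0.41) were higher in every C26 pool, short of 1.5-fold, and Dcn differed by 0.026. Sums of 6 measured macrophage markers were 36.3 to 36.8 and 40.7 to 41.2, with 3 that rose, and those of 6 neutrophil markers were 17.0 to 18.02 and 26.1 to 28.0, with 5 that rose. None of 7 smooth muscle and pericyte markers passed, and 1 rose and 1 fell of 7 endothelial markers. The part of these cells in the changes of the 44 genes was not tested. Of 10 skeletal muscle identity markers only Cacna1s passed, lower by 0.67, and their sums were 121.2 to 121.6 in control and 118.8 to 120.2 in C26 pools.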

How the data were processed

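RNA of 6 pools was hybridized to Affymetrix Mouse Gene 1.0 ST arrays, 1 pool an array, with RNA integrity numbers of at least 8.0. The authors computed the deposited log2 values by RMA in GenePattern, using a Brainarray CDF of version 13 designed to give a gene 1 probe set, and no further normalization was applied. RMA corrects background and quantile-normalizes, so arrays are comparable. The genome build of the probe sets was not given in the sources used here. Depth does not apply to arrays, and the number of arrays limits the precision.

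Of 21212 probe sets 18782 carried 1 symbol that no other shared, 6 carried several, 4 shared a symbol and 2420 are unnamed here. Murc was matched by its older symbol. Two-sided tests were made in R 4.3.3 by lmFit and eBayes of limma 3.58.1 (4.52 prior degrees of freedom). The p-values were adjusted by Benjamini-Hochberg across the whole table, and calls needed an adjusted p of at most 0.05 and 1.5-fold. The 95% intervals are not adjusted for the number of genes. Background was the 95th percentile of 1259 receptor probe sets. The scripts were tested on simulated data.

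The 44 genes and all lists were chosen with earlier results of these data known, so no list was tested. Any of the 44 could be named, with values of every pool for genes that passed and, as room allowed and largest change first, for others whose groups did not overlap. From each other list at most 4 genes with the largest change among those that passed were to be named. Genes outside that rule (Csrp3, Xirp1, Ankrd1, Ankrd2 and Myom3 pool values, Ttn, Sorbs2, Mef2a, Mef2d, Srf, Myog, Bag3, Myh3, Myh8, Trim55, Trim32, Pdgfra, Pi16, Dcn, Thbs4, the heart markers and the other 8 probe sets that split the C26 pools) were named after their values were seen. Cmya5, Hspb1 and Cd68 were not analysed here. Alternatives were t-tests with equal and unequal variances, other fold minimums, a trended robust prior, a filter for dim signals, 3 scalings, a replicate block and fits without 1 array. Promoters are from RefSeq (GRCm38.p6), without the bases after the start. Any window on 1 of the chromosomes was dropped for the 44 genes but not for the promoters set beside them. Lmod3, Myot, Neb, Myoz3, Actn3, Tcap, Xirp1, Myoz1 and Myom2 had no window after that step.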

Additional observations from a re-analysis of the deposited data

How the results depend on the processing

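Beside 3 genes that rose and 8 that fell among the 44, a test with unequal variances called 1 and 5 and no longer called Nrap, Flnc, Synpo2, Synpo2l and Synm. Median centring gave 5 higher, and 7 lower, with Myoz2 and Ankrd1 gained and Synpo2 lost. Without a fold minimum 7 and 17 passed, and with a 2-fold minimum 1 and 5. The methods' t-test with equal variances, limma with trend and robust prior and cyclic loess each gave 3 and 8, the filter on dim probe sets 4 and 8 and quantile normalization 4 and 9. Leaving out 1 array gave 2 to 8 higher and 7 to 10 lower, with the most of both without C26 replicate 1.

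The sign of small differences depended on the scaling. Under quantile normalization Ttn came to 0.026, Neb to 0.073, Actn3 to 0.012 and Murc to -0.056. Under median centring Ttn came to 0.026, Neb to 0.016, Actn3 to 0.00021, Myom2 to 0.028 and Mybpc1 to 0.030. Cyclic loess gave 0.015 for Ttn and -0.0074 for Murc. Across the fits without 1 array Murc ranged from -0.021 to 0.076 and Mybpc1 from -0.070 to 0.010.

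Replicate numbers 1 and 3 occur in both groups, and the deviations of equally numbered pools correlated at -0.061 and -0.057. These values gave no sign of pairing, but so few pairs cannot exclude a shared step of processing. With the replicate block 3 genes rose and 8 fell, and Mybpc1 came to 0.034 and Murc to -0.0052. No gene with a call turned its direction under the alternatives run. The cause of these shifts was not tested. Precision rests on 3 pools a group, which may share mice.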

Other observations

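Chaperones of the sarcomere were not described above. Of 11 measured, Hspb7, a small heat shock protein gene of heart and skeletal muscle whose product binds filamin C, rose by 1.12 (limma adjusted p = 0.000559). It read 9.62, 9.43 and 9.09 in control and 10.30, 10.57 and 10.61 in C26 pools. Hspb2 and Hspb3, whose small heat shock proteins form a complex in muscle, fell by 0.86 and 1.14 (adjusted p = 0.000376 and 0.000178). Bag3, the partner chaperone gene for filamin turnover, differed by 0.28 (adjusted p = 0.0776).

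None of 3 embryonic and neonatal myosin markers passed, with Myh3 at 0.019 and Myh8 at -0.11, and none of 6 satellite cell markers passed. Autophagy adaptor genes of the ligase and protease list rose, Sqstm1 by 0.92 (adjusted p = 0.000122) and Nbr1, whose protein binds titin's kinase domain, by 0.69 (adjusted p = 0.000382).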
